A study of Homo sapiens with 8 samples.

Results

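The genes described here encode the nuclear subunits of the mitochondrial respiratory chain and ATP synthase. They were chosen by symbol: CYC1, CYCS, SDHA to SDHD, and every symbol beginning with NDUFA, NDUFB, NDUFC, NDUFS, NDUFV, UQCR, COX4 to COX8, ATP5F, ATP5P or ATP5M, with no measured value used. The rule named 95 protein-coding genes of GRCh38, of which 65 had at least 1 acRIP peak that overlapped no other protein-coding gene, out of 9093 genes with a peak in the series. These 65 genes held 102 of the 31395 peaks, and all 65 passed the filter on low counts. Of the 30 genes without a peak of their own, ATP5PD, NDUFA2, NDUFA5, NDUFB6 and UQCRC2 had only peaks shared by several genes. The others of these 30 included COX4I2, COX6A2, COX6B2, COX7A1 and COX8C, isoforms known from particular tissues such as muscle, heart, lung or testis, as well as widely used subunits such as COX5A, COX8A and SDHB.

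The study recovered RNA fragments with an antibody against N4-acetylcytidine (acRIP) from 2 lines of human osteosarcoma cells. HOS is the older line, and 143B is a transformed derivative of it. In each line 1 library was labelled sgNAT10, cells in which the RNA acetyltransferase gene NAT10 was targeted for knockout, and 1 was labelled NC, the control. No other allele, agent or time is named in the labels, and whether the edited cells were a clone or a pool was not given in the sources used here. Raw counts of reads from poly(A)-selected RNA, given per peak interval, were summed per gene, with 1 library for each line and genotype.

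Oxidative phosphorylation passes electrons from NADH through complex I and from succinate through complex II to ubiquinone, then through complex III and cytochrome c to oxygen at complex IV. The proton gradient built by complexes I, III and IV drives ATP synthase, complex V. Most subunits are made in the cytosol from nuclear genes and imported, while a small core is made inside the mitochondrion from its own DNA. That core is not covered here, and tumour cell lines are known to differ widely in how far they rely on this pathway.

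Totals over all peaks lay between 20107718 and 24785306 counts per library. Peaks of the rRNA block on chromosome 21 held 34.0% of counts in 143B labelled sgNAT10, against 42.6% in 143B NC, and 42.5% in HOS labelled sgNAT10, against 60.3% in HOS NC. The 143B library labelled sgNAT10 stood apart, with Spearman correlations across peaks of 0.583 to 0.718 with the other libraries, against 0.803 to 0.865 among those. NAT10 itself had 130 counts in 143B labelled sgNAT10, against 65 in 143B NC, and 63 counts in HOS labelled sgNAT10, against 180 in HOS NC. After scaling, its log2 difference (labelled sgNAT10 minus NC) was 0.50 in 143B and -1.85 in HOS. In 143B the direction is thus not that of a loss of NAT10 RNA. Counts from acRIP join RNA level and antibody enrichment, so they cannot show whether the knockout or the label holds. Every direction given for 143B is therefore that of the library as labelled, and it rests on the library that stands apart. No 143B value can be given without it. The HOS counts do not come from it, but the filter and the scaling factors were computed over all libraries together. Of the mesenchymal and osteoblast markers examined, 5 of 10 had a peak, and COL1A1, COL1A2, TWIST1, THY1 and FN1 had none. Their summed level was 284 CPM in 143B labelled sgNAT10, against 527 CPM in 143B NC, and 962 CPM in HOS labelled sgNAT10, against 1020 CPM in HOS NC. Most of that sum was VIM, and the other markers went both ways, with HOS shifts (log2, labelled sgNAT10 minus NC) of -1.86 for SPARC, -1.58 for CD44 and 0.78 for RUNX2. Of 4 epithelial markers only CDH1 had a peak, with 812 counts in HOS labelled sgNAT10, against 5 in HOS NC, and 7 counts in 143B labelled sgNAT10, against 30 in 143B NC. The part of these marker levels in the results was not tested. Endothelial and muscle markers had no peak, and of the blood markers PTPRC had 2 to 22 counts per library.

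Oxidative phosphorylation genes had more acRIP counts in the library labelled sgNAT10 than in NC in 143B, and fewer in HOS. A shift is the difference in log2 CPM (counts scaled to library size with TMM factors, prior count of 1), labelled sgNAT10 minus NC. In 143B, 59 of 65 genes had a shift above 0, where 56.8% of the 8153 gene sums tested did, and the median shift was 0.86 (range -1.19 to 2.70). In HOS, 62 of 65 had a shift below 0, where 48.1% of all gene sums did, and the median was -0.58 (range -1.72 to 0.32). Both directions together held for 56 genes, against 26.8% of all gene sums. Of the 6313 protein-coding gene sums, 55.1% were above 0 in 143B, 54.5% below 0 in HOS and 30.8% both. Their median shifts were 0.15 in 143B and -0.11 in HOS. With scaling factors computed without the rRNA block the medians were 0.93 and -0.85. The HOS direction depends on the scaling: with library totals alone only 32 of 65 genes were lower and the median was 0.00. Relative to the median of all gene sums, 0.19 in 143B and 0.05 in HOS, the members lay 0.67 higher in 143B and at -0.63 in HOS. Library totals alone moved the median of all gene sums by 0.34 in 143B and 0.56 in HOS and single genes by about as much. The members' place relative to that median was -0.61 to -0.63 in HOS under every scaling tried. A scaling factor moves all genes of a library by nearly the same amount, so this place could hardly change. It is therefore no check on the scaling.

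Shifts of at least 2-fold were mostly upward in 143B and, with TMM factors, all downward in HOS. In 143B, 25 of the 65 genes were higher by 2-fold or more, where the background was 21.3%, and 1 gene, ATP5F1B, was lower by that much, where the background was 17.4%. In HOS, 13 genes were lower by 2-fold or more, against a background of 12.7%, and 0 were higher, against 17.1%. Over protein-coding gene sums the shares were 20.6% higher and 19.3% lower in 143B, and 15.1% lower and 13.3% higher in HOS. The members' counts depend on the scaling. With library totals alone 48 genes were at least 2-fold higher in 143B and 2 at least 2-fold lower in HOS. With upper quartile factors 45 were higher in 143B, and with factors computed without the rRNA block 24 were lower in HOS. Counting error was small beside most shifts: the 95% interval lay wholly above 0 for 57 genes and wholly below 0 for 5 in 143B, and wholly below 0 for 54 genes in HOS. Such intervals cover counting error only: no molecular identifiers are named in the labels, so reads may be copies of 1 molecule, and each group has 1 library. They use TMM factors, and they were not counted over all gene sums, so their counts are not a result about the members.

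With the main filter on low counts no gene passed a test across both lines. The edgeR quasi-likelihood test with cell line as a block called 0 of 8153 gene sums (0% called) and 0 of 24467 peaks (0% called) at an adjusted p of 0.05, while the unadjusted p was under 0.05 for 315 gene sums and 944 peaks. DESeq2 called 0 gene sums (229 unadjusted) and limma-trend 0 (329 unadjusted). The 65 members had adjusted p-values of 0.985 or above in edgeR, and 0 had an unadjusted p under 0.05. Other filters called 1 gene sum, which is no member, at a mean count of at least 100, and 112 peaks with no filter. The design left 1 residual degree of freedom, and whether the libraries came from separate cultures beyond the line was not given. In such bulk RNA, fewer cells and less RNA per cell cannot be told apart, nor can RNA level and antibody enrichment without the inputs, which were not used here.

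**Figure D1:**
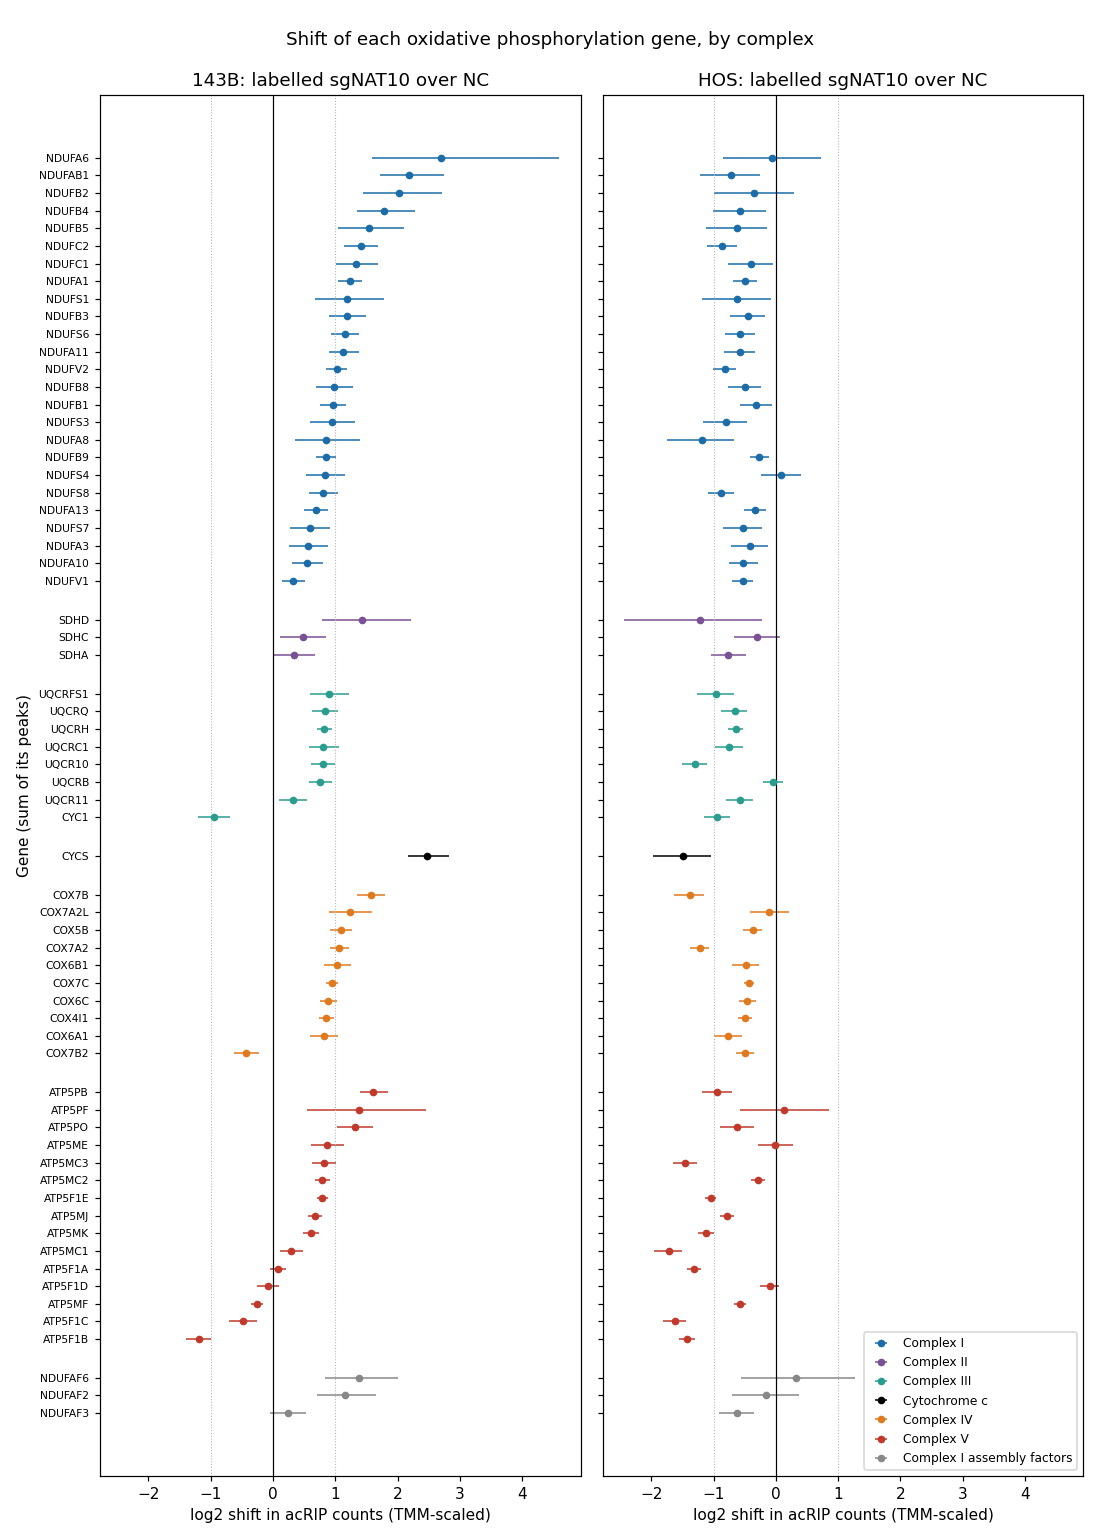
Log2 shift of each gene (labelled sgNAT10 over NC, TMM-scaled, x axis) in 143B (left) and HOS (right), with genes down the page grouped by complex and lines showing 95% counting intervals. In 143B 59 of 65 points lie right of 0 and in HOS 62 of 65 lie left of it, although with library totals alone only 32 of 65 would in HOS.

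Which library held a gene's highest level depended on the scaling. With TMM factors it was 143B labelled sgNAT10 for 26 of the 65 genes, HOS labelled sgNAT10 for 1 and HOS NC for 38, while with library totals alone it was 143B labelled sgNAT10 for 58, HOS labelled sgNAT10 for 2 and HOS NC for 5. The 143B NC library was highest for 0 genes under every scaling tried. The lowest level with TMM factors lay in HOS labelled sgNAT10 for 12 genes and in 143B NC for 46, and with upper quartile factors in HOS labelled sgNAT10 for 37 and in 143B NC for 24. Such ranks were not counted over all gene sums, so they are not a result about the members. Summed over members, the scaled level was 1698 CPM in 143B labelled sgNAT10, against 1041 CPM in 143B NC, and 1236 CPM in HOS labelled sgNAT10, against 2026 CPM in HOS NC. The NC libraries also differed from each other: HOS NC was above 143B NC in 64 of 65 genes (54.8% of all gene sums), by a median of 0.89 on the log2 scale (60 genes and 0.46 with library totals alone). Among protein-coding gene sums HOS NC was above 143B NC in 62.5%. Since each shift uses the NC library of its line, a line's shift and this difference between NC libraries share that library. Across the 65 genes the shift in 143B and the shift in HOS had a Spearman correlation of 0.15, given as a description of genes that share libraries.

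**Figure D2:**
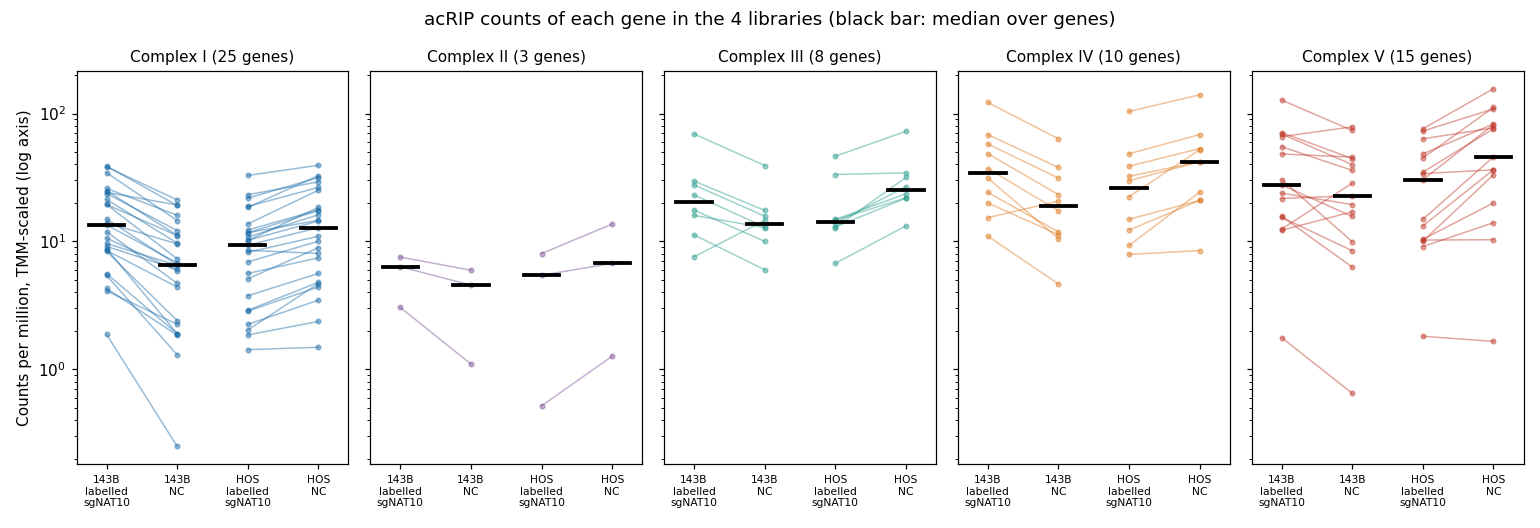
Scaled counts (CPM) of each gene (y axis, log scale) in the 4 libraries, 1 panel per complex, with lines joining the libraries of a line and black bars at the median over genes. In each complex the bar for 143B labelled sgNAT10 lies above 143B NC and the bar for HOS labelled sgNAT10 lies below HOS NC, although with library totals alone the median HOS shift of complexes I and IV is above 0.

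Cytochrome c, the small carrier of electrons between complexes III and IV, had the largest contrast between lines among the 65 genes. CYCS had 1 peak on the minus strand of chromosome 7 (25122841 to 25123068, GRCh38), which lay 4185 bp before the 3′ end of its gene. This peak held 699 counts in 143B labelled sgNAT10, against 88 in 143B NC, and 59 counts in HOS labelled sgNAT10, against 131 in HOS NC. The 143B library labelled sgNAT10 was thus the highest of the libraries and the HOS library labelled sgNAT10 the lowest. The shift was 2.48 in 143B (counting interval 2.17 to 2.83), 5.58-fold higher, and -1.49 in HOS (-1.97 to -1.05), 2.80-fold lower. In edgeR the mean log2 change across lines was 0.51 (SE 1.15, adjusted p = 0.985, higher in 1 of 2 lines).

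The promoter sequences of CYCS, NDUFA6 and SDHD are shown because these genes were among the 6 with the largest contrasts between lines, and because nuclear respiratory genes are known for promoters that bind the transcription factors NRF1 and GABPA (an ETS factor also called NRF2) and YY1. Each is the stretch of 250 bases before the annotated start, from RefSeq on GRCh38.p14, written 5′ to 3′ on the gene's strand, at chr7:25125261-25125510 (minus) for CYCS, chr22:42090773-42091022 (minus) for NDUFA6 and chr11:112086623-112086872 (plus) for SDHD. Capitals mark an exact match, on either strand, to TGCGCATGC (NRF1) or CCGGAAGT (ETS).
CYCS: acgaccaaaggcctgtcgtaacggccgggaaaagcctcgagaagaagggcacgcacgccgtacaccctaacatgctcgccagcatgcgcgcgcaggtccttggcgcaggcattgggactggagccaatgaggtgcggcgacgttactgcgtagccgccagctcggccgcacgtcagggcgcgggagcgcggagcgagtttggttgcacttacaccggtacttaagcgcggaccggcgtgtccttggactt
NDUFA6: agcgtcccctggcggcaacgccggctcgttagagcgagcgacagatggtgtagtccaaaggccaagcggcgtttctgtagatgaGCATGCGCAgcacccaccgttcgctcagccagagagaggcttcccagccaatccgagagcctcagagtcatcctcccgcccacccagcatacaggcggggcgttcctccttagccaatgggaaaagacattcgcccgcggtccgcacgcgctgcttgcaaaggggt
SDHD: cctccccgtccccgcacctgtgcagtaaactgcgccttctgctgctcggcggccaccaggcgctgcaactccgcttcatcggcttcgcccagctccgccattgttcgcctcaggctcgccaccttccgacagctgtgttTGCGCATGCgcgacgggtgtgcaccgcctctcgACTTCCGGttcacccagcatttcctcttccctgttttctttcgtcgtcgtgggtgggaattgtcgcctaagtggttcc

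Within these windows SDHD held both motifs and NDUFA6 held the NRF1 motif, 158 to 166 bases before the start, while these exact letters were not in the CYCS window. The windows of COX7B, NDUFAB1 and ATP5PB, the others of the 6 genes with the largest contrasts, held neither motif. A promoter was at hand for 53 of the 65 genes. The NRF1 motif stood in 6 of the 53 (11.3%), namely COX5B, COX6A1, NDUFA6, NDUFB4, NDUFS6 and SDHD, against 1.37% of all 27305 promoters. The ETS motif stood in 8 of 53 (15.1%), against 3.64%, and the YY1 motif AAGATGGCG in 1, ATP5PF (1.89%), against 0.641%. In a window of 300 bases that also takes in the first bases after the start, the YY1 motif stood in 5 of 53 (9.43%), among them NDUFA6, against 1.85%. No match overlapped another. A match is a description of these letters and not evidence of binding, and neither NRF1 nor GABPA was among the genes with a peak of their own.

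Complex I, the NADH dehydrogenase, held a single direction in 143B. Of its 37 listed genes 25 had a peak, and all 25 were higher in 143B labelled sgNAT10 than in 143B NC (median shift 1.02, range 0.33 to 2.70), while 24 of 25 were lower in HOS labelled sgNAT10 than in HOS NC (median -0.53, range -1.19 to 0.08). With library totals alone the HOS median of complex I was 0.05. The summed level was 401 CPM in 143B labelled sgNAT10, against 204 CPM in 143B NC, and 257 CPM in HOS labelled sgNAT10, against 369 CPM in HOS NC. The core subunits, which carry the flavin and the iron-sulphur clusters, had medians of 0.87 in 143B and -0.71 in HOS over 6 genes. The other 19 subunits, which surround that core, had 1.16 and -0.50.

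Among the complex I genes with the most counts, NDUFB9, an accessory subunit of the membrane arm, had 38.2 CPM in 143B labelled sgNAT10, against 21.1 CPM in 143B NC, and 32.8 CPM in HOS labelled sgNAT10, against 39.4 CPM in HOS NC. Its shifts were 0.85 and -0.26. NDUFV2, a core subunit with an iron-sulphur cluster, had 38.9 CPM in 143B labelled sgNAT10, against 19.1 CPM in 143B NC, and 18.5 CPM in HOS labelled sgNAT10, against 32.7 CPM in HOS NC. All 3 peaks also overlapped the antisense gene NDUFV2-AS1, whose reads cannot be told apart without strand. NDUFA1, an accessory subunit needed for assembly of the membrane arm, had shifts of 1.24 (1.05 to 1.44) in 143B and -0.50 (-0.69 to -0.31) in HOS.

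The widest contrasts in complex I came from genes with fewer counts than the members' median of 1447. NDUFAB1, the mitochondrial acyl carrier protein, had 248 counts in 143B labelled sgNAT10, against 38 in 143B NC, and 67 in HOS labelled sgNAT10, against 87 in HOS NC, with shifts of 2.18 (1.71 to 2.74) and -0.72 (-1.21 to -0.25). NDUFA6, a subunit of the LYR family that docks this carrier to complex I, had 53 counts in 143B labelled sgNAT10, against 5 in 143B NC, a shift of 2.70 whose interval reached from 1.60 to 4.59. In HOS its 33 counts in the library labelled sgNAT10, against 27 in NC, gave -0.06 (-0.84 to 0.73). The narrowest contrasts were those of NDUFV1, the core subunit that binds NADH, at 0.33 and -0.53, and of NDUFS4, an accessory subunit known from Leigh syndrome, at 0.84 and 0.08. NDUFS4 was thus the complex I gene whose HOS shift was above 0, with an interval of -0.24 to 0.40.

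The prefix NDUFA also takes assembly factors, which help to build complex I without remaining in it. Of 8 such genes 3 had a peak. NDUFAF2 lay at 1.16 in 143B and -0.16 in HOS, NDUFAF3 at 0.24 and -0.63, and NDUFAF6 at 1.38 and 0.32. The HOS intervals of NDUFAF2 and NDUFAF6 included 0. Leaving these genes out gave medians of 0.85 and -0.58 for the remaining 62 members.

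Complex II, succinate dehydrogenase, also belongs to the citric acid cycle and has no subunit encoded in the mitochondrion. It was represented by 3 of 4 genes. SDHA, the flavoprotein, had 7.55 CPM in 143B labelled sgNAT10, against 5.96 CPM in 143B NC, and 8.05 CPM in HOS labelled sgNAT10, against 13.7 CPM in HOS NC, with shifts of 0.34 (0.01 to 0.68) and -0.76 (-1.05 to -0.49). SDHC, a membrane anchor, lay at 0.47 (0.11 to 0.86) and -0.30 (-0.68 to 0.07). SDHD, the other anchor, whose promoter is printed above, had 86 counts in 143B labelled sgNAT10, against 22 in 143B NC, and 12 in HOS labelled sgNAT10, against 23 in HOS NC. Its shifts were 1.43 (0.78 to 2.22) and -1.22 (-2.43 to -0.22), so that the HOS library labelled sgNAT10 was again the lowest. SDHA has a pseudogene, SDHAP1, with 1 peak of its own at 43 to 54 counts per library. How reads that map to both were treated was not given.

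Complex III, the cytochrome bc1 complex, held 8 genes with a peak, of 10 listed. Of these, 7 were higher in 143B labelled sgNAT10 than in 143B NC (median 0.81) and all 8 were lower in HOS labelled sgNAT10 than in HOS NC (median -0.70, which was -0.12 with library totals alone). UQCRH, the hinge protein, had 69.2 CPM in 143B labelled sgNAT10, against 39.2 CPM in 143B NC, and 46.4 CPM in HOS labelled sgNAT10, against 72.6 CPM in HOS NC. Its shifts of 0.82 and -0.65 were close to those of the small subunit UQCRQ (0.83 and -0.66) and of the core protein UQCRC1 (0.81 and -0.75). UQCRFS1, the Rieske iron-sulphur protein, lay at 0.90 and -0.97, and UQCR10, a small subunit, at 0.81 and -1.30. UQCR11 had shifts of 0.32 and -0.58. UQCRB, which lies near a ubiquinone site, lay at 0.76 and -0.04, with a HOS interval of -0.20 to 0.11.

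CYC1, the cytochrome c1 that hands electrons to cytochrome c, was the exception in complex III. It rested on 1 peak, 65 bp from an end of the gene. Its strand was not at hand, so whether this was the 3′ end could not be said. It had 7.59 CPM in 143B labelled sgNAT10, against 14.6 CPM in 143B NC, and 13.9 CPM in HOS labelled sgNAT10, against 26.8 CPM in HOS NC. Each library labelled sgNAT10 was below the NC library of its line, with shifts of -0.94 in 143B (-1.21 to -0.69) and -0.95 in HOS (-1.16 to -0.74). With library totals alone they were -0.60 and -0.37. The edgeR change was -0.95 (SE 0.82, adjusted p = 0.985, lower in 2 of 2 lines).

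Complex IV, cytochrome c oxidase, had 10 of 17 listed genes with a peak. In 143B 9 of the 10 were higher in the library labelled sgNAT10 (median 0.98), and in HOS all 10 were lower (median -0.49, which was 0.09 with library totals alone). COX7C, a small membrane subunit, had 122 CPM in 143B labelled sgNAT10, against 63.5 CPM in 143B NC, and 104 CPM in HOS labelled sgNAT10, against 140 CPM in HOS NC, or shifts of 0.94 and -0.43. COX4I1, the main isoform of the subunit known to bind ATP, lay at 0.85 and -0.50. COX6C lay at 0.89 and -0.46. With TMM factors the intervals of all 3 excluded 0 in both lines, but they do not cover the choice of scaling.

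COX7B had the widest contrast in complex IV. Its single peak on chromosome X (77905221 to 77905375) held 883 counts in 143B labelled sgNAT10, against 210 in 143B NC, and 215 in HOS labelled sgNAT10, against 441 in HOS NC, with shifts of 1.57 (1.36 to 1.80) and -1.38 (-1.63 to -1.15). COX7A2, the widely expressed isoform of its subunit, followed with 1.06 and -1.22. The related COX7A2L, known for its part in joining complexes III and IV into supercomplexes, lay at 1.23 and -0.10, and its HOS interval of -0.42 to 0.22 included 0. COX7B2, a testis isoform of COX7B whose gene spans a long region, was the member of complex IV that was lower in both lines. It had 15.4 CPM in 143B labelled sgNAT10, against 20.7 CPM in 143B NC, and 29.8 CPM in HOS labelled sgNAT10, against 42.0 CPM in HOS NC, or shifts of -0.43 and -0.49.

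Complex V, ATP synthase, was less uniform in 143B. Of 15 genes with a peak, out of 18, 11 were higher in 143B labelled sgNAT10 than in 143B NC (median 0.67, range -1.19 to 1.61) and 14 were lower in HOS labelled sgNAT10 than in HOS NC (median -0.95, which was -0.37 with library totals alone). The 5 genes of the F1 head, the part that makes ATP, had medians of -0.08 in 143B and -1.31 in HOS. The other 10 genes had 0.81 and -0.70. Differences between parts of a complex are described here by medians and were not tested.

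ATP5F1B, the catalytic beta subunit, had 352 counts in 143B labelled sgNAT10, against 570 in 143B NC, and 702 in HOS labelled sgNAT10, against 1483 in HOS NC. It was lower in both lines, with shifts of -1.19 in 143B and -1.43 in HOS (-1.56 to -1.30), and both counting intervals lay below 0. ATP5F1C, the gamma subunit of the rotating shaft, lay at -0.48 and -1.62. ATP5F1D, the delta subunit beside it, lay at -0.08 and -0.10, and both of its intervals included 0. ATP5F1A, the alpha subunit, had 48.3 CPM in 143B labelled sgNAT10, against 45.7 CPM in 143B NC, and 44.9 CPM in HOS labelled sgNAT10, against 112 CPM in HOS NC. HOS NC was the highest of the libraries for this gene, with shifts of 0.08 (-0.04 to 0.20) and -1.31 (-1.42 to -1.21). ATP5F1E, the epsilon subunit and the member of complex V with the most counts, lay at 0.79 and -1.04.

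In 143B the peripheral stalk and the c ring (median 0.79) had higher medians than the head. The peaks of these parts also differed in place, and what this contributes was not tested. ATP5PF and ATP5PO had 1 peak each, 74 and 11 bp before the 3′ end. In ATP5F1A and ATP5F1C only the peak nearest the 3′ end lay above 0 in 143B (0.99 and 0.90), while all peaks of ATP5F1E did. For ATP5F1B and ATP5F1D the strand was not at hand. The peripheral stalk, which holds the head still, had a median of 1.39 in 143B and -0.62 in HOS over 3 genes. ATP5PB, its b subunit, had 860 counts in 143B labelled sgNAT10, against 199 in 143B NC, and 240 in HOS labelled sgNAT10, against 363 in HOS NC, with shifts of 1.61 and -0.95. ATP5PF had few counts and lay at 1.39 and 0.13, with a HOS interval of -0.58 to 0.86. The c ring, through which protons pass, is encoded by 3 genes that make the same mature protein. These lay at 0.82 and -1.45 (ATP5MC3), 0.79 and -0.28 (ATP5MC2) and 0.29 and -1.72 (ATP5MC1), so their HOS shifts were farther apart than their 143B shifts. ATP5MF, a small membrane subunit, lay at -0.25 and -0.57, and its 3 peaks also overlapped the readthrough gene ATP5MF-PTCD1.

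Where a gene had several peaks, the peak nearest the 3′ end usually had a higher shift in 143B than the peak nearest the start. The strand was known for 83 of the 102 peaks, and 18 genes had at least 2 such peaks that passed the filter. In 143B the shift of the peak nearest the 3′ end exceeded that of the peak nearest the start in 16 of the 18 genes, where the background over 2026 genes was 62.7%. The median difference was 0.67, against 0.38 over those genes. In HOS it did so in 13 of 18, against 53.4%, with a median difference of 0.15, against 0.05. The exceptions in 143B were COX7B2 and NDUFA10.

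ATP5F1A had the steepest such order. On the minus strand of chromosome 18, its peak at 46084157 to 46084719 was nearest the 3′ end and held 1129 counts in 143B labelled sgNAT10, against 402 in 143B NC. The peak nearest the start, at 46098088 to 46098214, held 81 counts in 143B labelled sgNAT10, against 198 in 143B NC. The 143B shifts were 0.99 near the 3′ end and -1.77 near the start, so the gene's summed shift of 0.08 joined opposite parts. In HOS the same peaks lay at -1.10 and -1.48, on the same side. ATP5F1C showed the same order in 143B, with 0.90 for the peak that ended 94 bp before the 3′ end and -1.16 for the peak 52 bp after the start. Its HOS shifts had this order too, at -0.56 and -1.90, and their difference of 1.34 was the largest in HOS among the 18 genes.

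COX7C, on the plus strand of chromosome 5, had 143B shifts of 1.64, 0.99 and 0.34 from its 3′ peak (86620578 to 86620748) to its first peak (86618052 to 86618208). Its HOS shifts were -0.28, -0.45 and -0.47. NDUFS4 had 1.57, 0.64 and -0.24 in 143B and 0.46, -0.28 and -0.09 in HOS. NDUFV2 had 1.42, 1.12 and 0.26 in 143B, and -0.78, -0.88 and -0.78 in HOS. In these genes the 143B order thus ran along the gene while the HOS values differed by less than 1 log2 unit.

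ATP5F1E had 143B shifts of 1.89, 1.47, 0.70 and 0.37 from the 3′ end to the start, although 3 of its 4 peaks also overlapped the readthrough gene SLMO2-ATP5E. The remaining genes with 2 or 3 peaks had 3′ against start values in 143B of 1.04 against 0.37 (ATP5MC2), 0.79 against 0.43 (ATP5MJ), 0.75 against 0.08 (ATP5MK), 0.95 against 0.56 (COX4I1), 1.68 against 0.76 (COX5B) and 1.31 against 0.70 (COX7A2). NDUFA1 had 1.41 against 1.07, NDUFB1 1.17 against 0.83, NDUFC1 1.38 against 1.25 and UQCRH 1.08 against 0.30. NDUFA10, with peaks far apart in a long gene span, ran the other way at -0.87 against 0.94. In COX7B2 the values were -0.66 and -0.26. NDUFA8 had 1 peak that passed the filter (1.34 in 143B) and 1 with 7 to 15 counts per library that did not. The strand was not at hand for the peaks of COX6C, NDUFB9, NDUFC2, UQCRB and ATP5MF. Their 143B shifts ranged from 0.25 to 1.12 in COX6C, 0.74 to 0.97 in NDUFB9, 1.04 to 1.62 in NDUFC2 and 0.57 to 1.49 in UQCRB. The 3 peaks of ATP5MF were all below 0, at -0.30 to -0.13.

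**Figure D3:**
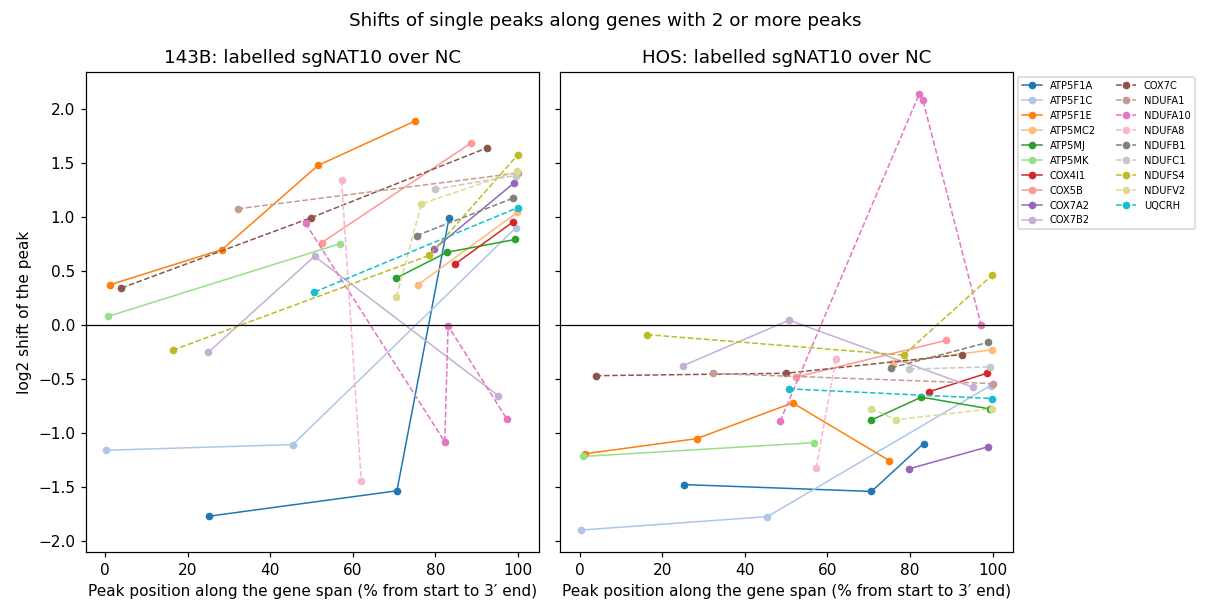
Log2 shift of single peaks (y axis, labelled sgNAT10 over NC) against their place along the gene span (x axis, percent from start to 3′ end) in 143B (left) and HOS (right), with lines joining the peaks of a gene. In 143B most lines climb toward the 3′ end, as in 16 of 18 genes with 2 or more tested peaks, and NDUFA10, NDUFA8 and COX7B2 do not.

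Distance from the 3′ end also bore on how the members compared with other genes. Within 500 bp of the 3′ end, 35 peaks of members had a median shift of 1.16 in 143B, against 0.90 for 1134 peaks of other protein-coding genes, and -0.53 in HOS, against -0.66. Between 500 and 5000 bp, 26 peaks of members had 0.82 in 143B, against -0.44 for 1335 others, and -0.67 in HOS, against -0.25. Beyond 5000 bp, 20 peaks of members had 0.28 in 143B, against -0.44 for 7930 others, and -0.77 in HOS, against 0.23. The members thus lay closest to other genes near the 3′ end, where the sign was the same in both lines. Between 500 and 5000 bp it was the same in HOS only. Within 500 bp the HOS median of the members was above that of other genes, while in both farther classes it was below. Summing only peaks within 500 bp of either end of a gene put the 43 members with such peaks 0.28 above the median of all genes in 143B and at -0.04 relative to it in HOS. With peaks away from both ends the 40 members left lay 0.73 above in 143B and at -0.79 in HOS. Distance is given here as a description, and its part in the members' shifts was not tested. Over the 83 peaks the 143B shift and the distance had a Spearman correlation of -0.48, and the HOS shift -0.14.

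**Figure D4:**
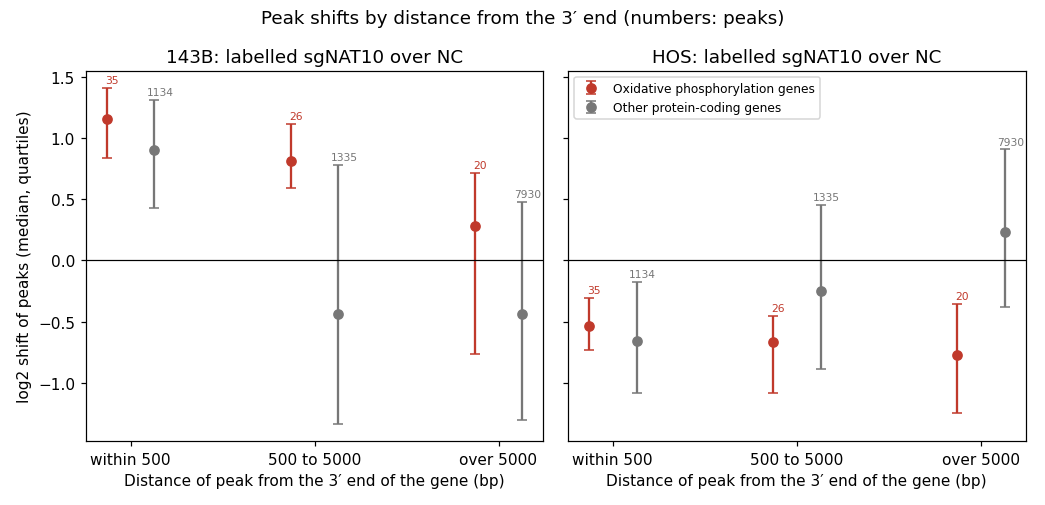
Median log2 shift of peaks (y axis, labelled sgNAT10 over NC, bars at the quartiles) by distance from the 3′ end of the gene (x axis, classes in bp) for oxidative phosphorylation genes (red) and other protein-coding genes (grey), in 143B (left) and HOS (right), with numbers of peaks above the bars. Within 500 bp the medians in 143B are 1.16 and 0.90 and in HOS -0.53 and -0.66, and they part farther from the 3′ end.

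Genes of the mitochondrial ribosome and the proteasome had medians above 0 in 143B and below 0 in HOS, as the members did. The 47 mitochondrial ribosomal protein genes, whose ribosome makes the subunits encoded in the mitochondrion, had medians of 0.75 in 143B and -0.59 in HOS, with 44 higher in 143B and 44 lower in HOS. The 25 proteasome genes had 0.99 and -0.97, with 23 higher in 143B and 24 lower in HOS. Nothing above is called particular to oxidative phosphorylation genes. These sets share all libraries, and differences between them were not tested.

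None of the other listed genes of the pathway passed the edgeR test. The test called 0 of 8153 gene sums, so this is not a result about these genes. Of 46 listed assembly factors 21 had enough counts, with 18 higher in 143B and 16 lower in HOS (medians 0.70 and -0.75). COX16, needed for complex IV assembly, lay at 2.80 in 143B (2.06 to 3.82) but rested on 13 counts in 143B NC. COX17, a copper chaperone, lay at 1.67 (1.34 to 2.05). The 3 assembly factors that went the other way in 143B were FOXRED1 (-1.59), ATPAF1 (-1.73) and NUBPL (-0.47). ATPAF1 rested on 14 counts in 143B labelled sgNAT10. In HOS FOXRED1 lay at 0.60, ATPAF1 at -0.65 and NUBPL at 0.05. Of 7 carriers and channels 6 were tested, with medians of 0.11 and -1.35. SLC25A3, the phosphate carrier that supplies ATP synthase, had 21.7 CPM in 143B labelled sgNAT10, against 46.8 CPM in 143B NC, and 56.7 CPM in HOS labelled sgNAT10, against 139 CPM in HOS NC, and was thus lower in both lines as ATP5F1B was.

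Of 18 genes of mitochondrial protein import 11 were tested, with 8 higher in 143B and 11 lower in HOS (medians 0.46 and -1.09). The citric acid cycle gave 5 of 16 genes, with 3 higher in 143B and 5 lower in HOS (medians 0.19 and -0.48). Only 3 of 12 regulators were tested. Among these TFAM, which packages and transcribes mitochondrial DNA, lay at -0.74 in 143B and -1.97 in HOS, YY1 at 0.55 and -1.32, and PPARGC1A, a coactivator of mitochondrial biogenesis, at 0.26 and 0.66.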

How the data were processed

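Anti-ac4C RNA immunoprecipitation was read as raw counts per peak interval, as deposited by the authors in 1 table per cell line. Per the submitters' processing notes, FastQC, STAR, SAMtools, deepTools and GRCh38 were used, with no role or version named. How peaks were called, how reads were counted, with which strand setting, and what was done with multiply mapped reads is not given in the sources used here. Nor is the origin of interval starts, so positions are those of the tables. Columns name line and genotype, and the assay was taken from the tables being named as RIP counts. The tables held 7 blank columns. The 4 input samples among the 8 listed were not used here.

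A peak was assigned to the single protein-coding gene of GRCh38.p14 (RefSeq) that it overlapped, or else to a single other gene. Of 31395 peaks, 15337 and 3754 were assigned in this way, 721 overlapped several genes and 11583 lay outside genes. Readthrough genes were set aside. Gene values are sums of peaks. Shifts are differences in log2 CPM after TMM scaling (edgeR 4.0.16, R 4.3.3, prior count of 1), with exact conditional binomial intervals of 95% from scipy 1.17.1. filterByExpr used a minimum count of 10 and a minimum total of 15. The edgeR quasi-likelihood test had cell line as a block, genotype as the tested term, Benjamini-Hochberg adjustment and a threshold of 0.05, and its script was first tested on simulated data. DESeq2 1.42.0, limma 3.58.1, other scalings, filters and gene values were alternatives. Median half-widths of the intervals were 0.23 in 143B and 0.24 in HOS (log2).

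The members, lists, tests and the choice of named genes were made with earlier results of these data known. Named genes are the members of complexes II and III and CYCS, the 3 with most counts and the 2 with the widest and narrowest contrasts between lines in complexes I, IV and V, members against the common direction, and members with several peaks. Strand and promoters came from the RefSeq promoter table. Distance classes, motifs and genes named from other lists were chosen after values were seen, as were ranks of the libraries under other scalings.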

Additional observations from a re-analysis of the deposited data

Results flagged for a closer look

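The 2 lines differed in direction under the same contrast for oxidative phosphorylation genes, and this difference between lines was not tested, since each line has 1 library per genotype. The median shift in 143B minus the median shift in HOS was 1.43 over all 65 genes. By complex it was 1.55 for complex I, 1.24 for complex II, 1.51 for complex III, 1.47 for complex IV and 1.62 for complex V. The size depends on the scaling, with 1.196 over the 65 genes with library totals alone and 1.79 with factors computed without the rRNA block. With library totals alone the HOS medians of all members, of complex I and of complex IV were at or above 0.

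Among single genes, contrasts above 2.5 log2 units between lines whose shifts had opposite signs were those of CYCS (3.97), COX7B (2.95), NDUFAB1 (2.90), NDUFA6 (2.76), SDHD (2.65) and ATP5PB (2.55). NDUFA6 rests on 5 counts in 143B NC, and its HOS shift of -0.06 had an interval that included 0 (-0.84 to 0.73). SDHD rests on 12 counts in HOS labelled sgNAT10.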

How the results depend on the processing

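Every median shift of the members kept its direction under the 12 alternatives run, except the HOS median with library totals alone. The medians ranged from 0.77 to 1.197 in 143B and from -0.85 to 0.000545 in HOS. Removing the filter could not change them, since all 65 members passed it. A prior count of 5 (0.85 and -0.57) and leaving out assembly factors (0.85 and -0.58) could move them little. The number of alternatives is therefore no measure of robustness. With library totals alone the HOS medians were 0.000545 over all members, 0.0474 in complex I, -0.18 in II, -0.12 in III, 0.0903 in IV and -0.37 in V, with 2 members lower by 2-fold or more. In 143B they were 1.197 over all members, 1.36 in complex I, 0.82 in II, 1.15 in III, 1.33 in IV and 1.02 in V, with 48 members at least 2-fold higher and 0 at least 2-fold lower. TMM factors without the rRNA block gave HOS medians of -0.85 over all members, -0.81 in complex I, -1.04 in II, -0.98 in III, -0.77 in IV and -1.22 in V, and 24 members lower by 2-fold or more. Upper quartile factors gave 45 members at least 2-fold higher and 0 at least 2-fold lower in 143B. The count lower by 2-fold or more in 143B was 2 with DESeq2 size factors, with the highest-count peak, with peaks away from gene ends and with peaks that overlap no other gene. From peaks within 500 bp of a gene end, the 143B medians were 0.95 in complex II and 0.37 in V, the HOS median of complex V was -0.62, and 0 members in 143B and 6 in HOS were lower by 2-fold or more. From peaks away from both ends, the 143B median of complex IV was 0.75 and 11 members were higher by 2-fold or more. The cause of these moves was not tested, beyond the smaller number of genes in the settings by position. The edgeR count was 112 peaks with no filter, and at a mean count of at least 100 it was 9 peaks and 1 gene sum (0 members). No paired analysis was possible because the labels give no replicate numbers, other than through the cell line, which the edgeR test used as a block (0 calls also without it). With 1 library per group no replicate could be left out. The 1 residual degree of freedom limits the test across lines, and the median of 1447 counts per member sets the counting error.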
